A study of Homo sapiens with 6 samples.

Results

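The 9 genes described here carry the core of MHC class I antigen presentation and were measured in RL95-2, an established cell line from a human endometrial carcinoma. They were chosen by name: HLA-B, HLA-C, HLA-E, B2M, TAP1, TAP2, TAPBP, PSMB8 and PSMB9 were taken from the 23228 gene symbols of the deposited read count tables, in which all 9 were found. The control group was 3 libraries of cells kept in a 1:1 mixture of RPMI and DMEM without serum. The ADP-CM group was 3 libraries of cells kept in a 1:1 mixture of serum-free RPMI and medium conditioned by mature adipocytes, which were isolated from human visceral fat and cultured in DMEM. Both groups were incubated for 24 h, and the comparison asked how adipocyte-conditioned medium changed RNA levels in this 1 line. The labels do not say whether the 3 libraries of a group came from separate cultures, so p-values measure only the spread between these libraries.

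MHC class I molecules show short peptides from inside the cell to CD8 T cells. The proteasome cuts proteins into peptides, the TAP transporter moves them into the endoplasmic reticulum, and tapasin helps to load them onto a heavy chain paired with beta-2-microglobulin. Interferon-gamma is the classical inducer of these genes, acting in part through IRF1 and the class I transactivator NLRC5. Loss of this machinery is one known way by which tumour cells escape T cells, and HLA-E is in addition a ligand of an inhibitory receptor on natural killer cells.

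In ADP-CM, RNA of 5 of the 9 genes was lower by small amounts, namely TAP1, PSMB9, TAPBP, B2M and HLA-C, and HLA-E was higher. The falls ranged from 7.19% for HLA-C to 18.7% for PSMB9, while HLA-E rose by 5.60%. HLA-B, TAP2 and PSMB8 did not pass the test. Calls were made where p, adjusted by Benjamini and Hochberg's method over the 12663 genes tested, was under 0.01 in the quasi-likelihood test of edgeR, and each adjusted p given for a single gene comes from this fit unless DESeq2 is named. By this rule 6 of the 9 genes were called, beside 26.5% of all tested genes in either direction, 13.5% higher and 13% lower. With the study's further limit of a fold change over 1.5, none of the 9 was called by edgeR or by DESeq2, beside 2.27% of all tested genes. All 9 had an unadjusted p under 0.05, for which the share of all tested genes was not counted, so nothing is read from it. At an adjusted p under 0.05 in edgeR, 8 of the 9 passed, beside 4645 of the 12663 genes tested. Control and ADP-CM libraries had separate CPM ranges in 9 of 9 genes, as they did in 45.5% of all tested genes. The median log2 fold change was -0.11 over the 9 genes and 0 over all tested genes.

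**Figure D1:**
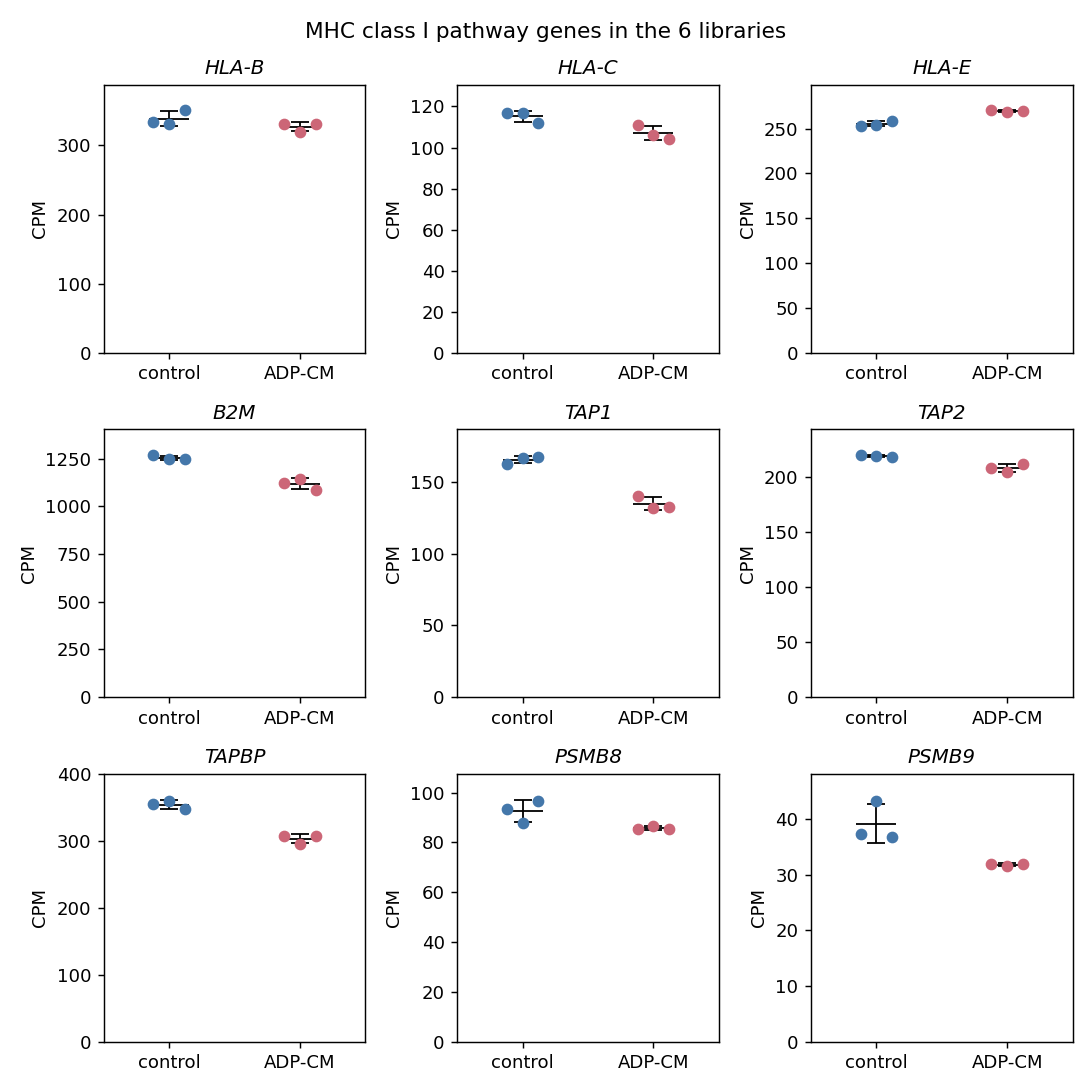
Normalized read counts (CPM, reads scaled to a common library size, y axis from 0) of the 9 MHC class I pathway genes in each of the 3 control (blue) and 3 ADP-CM (red) libraries, with bars for the mean and SD. In all 9 panels the groups do not overlap, with the clearest separation for TAP1, TAPBP and B2M, and HLA-E is the one gene whose ADP-CM libraries lie above the control libraries.

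The libraries held between 16262614 and 18363033 reads on genes, and the common biological coefficient of variation was 1.67%. Reads on no gene were 10.2% to 10.3% in control and 11.5% to 11.6% in ADP-CM libraries. The 10 epithelial markers were all detected and tested, with a summed level of 6020 to 6190 CPM in control and 5210 to 5320 CPM in ADP-CM. Stromal markers summed to 68.7 to 75.3 CPM in control and 93.7 to 96.8 CPM in ADP-CM, carried by COL1A1 and FAP, with 5 of 10 at 3 reads or fewer in every library. Leukocyte markers summed to 8.65 to 9.49 and 10.9 to 13.2 CPM, mostly CD68, with 11 of 15 at 3 reads or fewer and the defining marker PTPRC at no more than 1 read. Endothelial markers summed to 62.7 to 68.7 and 55.9 to 62.7 CPM, nearly all CDH5. Adipocyte markers summed to 5.98 to 7.25 and 4.53 to 5.38 CPM, mostly LIPE, which was called lower (log2 fold change -0.62, adjusted p = 3.44e-04). Of the 12 adipocyte markers, 8 had 3 reads or fewer in every library, with ADIPOQ and LEP at 0. The part of these shifts in the results below was not tested. In RNA from whole cultures, fewer cells expressing a gene and less RNA per cell cannot be told apart.

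The heavy chains hold the peptide. HLA-B (chromosome 6, 31321652 to 31324956, minus strand, canonical transcript of GENCODE 44 on GRCh37) had 333.6, 331.7 and 350.8 CPM in the control libraries and 331.4, 319.9 and 330.5 CPM in the ADP-CM libraries. The lowest control and the highest ADP-CM library nearly touched. The log2 fold change was -0.05 (SE 0.023, adjusted p = 0.0878) with a 95% interval from -0.10 to 0.00 and HLA-B was not called. An unnamed antisense gene overlaps 23.7% of its canonical exons.

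HLA-C (chromosome 6, 31236526 to 31239869, minus strand) had 116.7, 116.8 and 112.0 CPM in control and 110.8, 106.0 and 103.9 CPM in ADP-CM. All ADP-CM libraries lay below all control libraries, with a narrow gap. HLA-C fell by 0.11 on the log2 scale (SE 0.033, adjusted p = 0.00679). This call was lost with DESeq2 (adjusted p = 0.0431) and when control replicate 1 or 2, or ADP-CM replicate 2 or 3, was left out.

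HLA-E (chromosome 6, 30457286 to 30461971, plus strand), the non-classical heavy chain, had 253.4, 254.2 and 258.9 CPM in control and 270.5, 268.8 and 270.2 CPM in ADP-CM. It was the one gene of the 9 that stood higher in every ADP-CM library. HLA-E rose by 0.08 on the log2 scale (SE 0.024, adjusted p = 0.00657), a call lost with DESeq2 (adjusted p = 0.0214) and when control replicate 1 or 2, or ADP-CM replicate 1, was left out. Read against HLA-B within each library, a ratio chosen after the values were seen and independent of library scaling, HLA-E reads were 0.760, 0.766 and 0.738 of HLA-B reads in control and 0.816, 0.840 and 0.818 in ADP-CM. The balance between the non-classical and the classical chain thus stood higher in all 3 ADP-CM libraries, and no test was run on it.

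B2M (chromosome 15, 45003715 to 45010343, plus strand) encodes beta-2-microglobulin, the light chain that pairs with the class I heavy chains. It had 1267, 1249 and 1248 CPM in control and 1124, 1144 and 1087 CPM in ADP-CM. The lowest control library lay above the highest ADP-CM library by more than the range of the control libraries. B2M fell by 0.17 on the log2 scale (SE 0.018, adjusted p = 1.11e-11), to 0.891 of the control level, and was called in every alternative run. B2M is the only one of the 9 outside chromosome 6.

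TAP1 and TAP2 together form the peptide transporter. TAP1 (chromosome 6, 32812986 to 32821481, minus strand) had 162.7, 166.5 and 167.1 CPM in control and 140.1, 132.1 and 132.4 CPM in ADP-CM. TAP2 (chromosome 6, 32793192 to 32806516, minus strand) had 220.4, 218.8 and 218.5 CPM in control and 207.9, 205.0 and 211.7 CPM in ADP-CM. Neither gene overlapped between the groups, but the step was wide for TAP1 and narrow for TAP2. TAP1 fell by 0.30 on the log2 scale (SE 0.030, adjusted p = 7.80e-13) and was called in every alternative run. TAP2 had a log2 fold change of -0.07 (SE 0.025, adjusted p = 0.0163), with a 95% interval from -0.13 to -0.02, and was not called. The reads of TAP1 were 0.738, 0.761 and 0.765 of those of TAP2 in control and 0.674, 0.644 and 0.625 in ADP-CM, a ratio chosen after the values were seen and not tested. TAP1 thus fell relative to its partner in all 3 ADP-CM libraries. Of the exons of the canonical transcripts in GENCODE 44, 21.5% of TAP1 overlap the antisense gene PSMB8-AS1 and 35.8% of TAP2 overlap a gene on the same strand. The authors counted reads on the NCBI RefSeq annotation, and whether it held these overlapping genes was not tested. Reads could be left out as ambiguous or assigned elsewhere only where it did.

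TAPBP (chromosome 6, 33267471 to 33281855, minus strand) encodes tapasin, which bridges the TAP transporter and the waiting heavy chain. It had 355.5, 359.9 and 347.5 CPM in control and 306.9, 295.7 and 307.6 CPM in ADP-CM. The groups were well apart, with every ADP-CM library below 308 CPM. TAPBP fell by 0.22 on the log2 scale (SE 0.023, adjusted p = 1.98e-12) and was called in every alternative run. An unnamed antisense gene overlaps 40.5% of its canonical exons.

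PSMB8 and PSMB9 are catalytic subunits of the immunoproteasome, where they replace PSMB5 and PSMB6 of the constitutive proteasome. PSMB8 (chromosome 6, 32808494 to 32811824, minus strand) had 93.3, 87.8 and 96.8 CPM in control and 85.3, 86.8 and 85.5 CPM in ADP-CM. PSMB9 (chromosome 6, 32821969 to 32827628, plus strand) had 37.4, 43.2 and 36.8 CPM in control and 32.0, 31.6 and 31.9 CPM in ADP-CM. Both genes varied more among the control libraries than among the ADP-CM libraries, PSMB9 through a high control replicate 2. PSMB9 fell by 0.30 on the log2 scale (SE 0.055, adjusted p = 1.09e-05), and over the leave-one-out fits its log2 fold change ranged from -0.34 to -0.22, still called. PSMB8 had a log2 fold change of -0.11 (SE 0.036, adjusted p = 0.0116) with a 95% interval from -0.18 to -0.04, just outside the limit, and was called without control replicate 2.

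**Figure D2:**
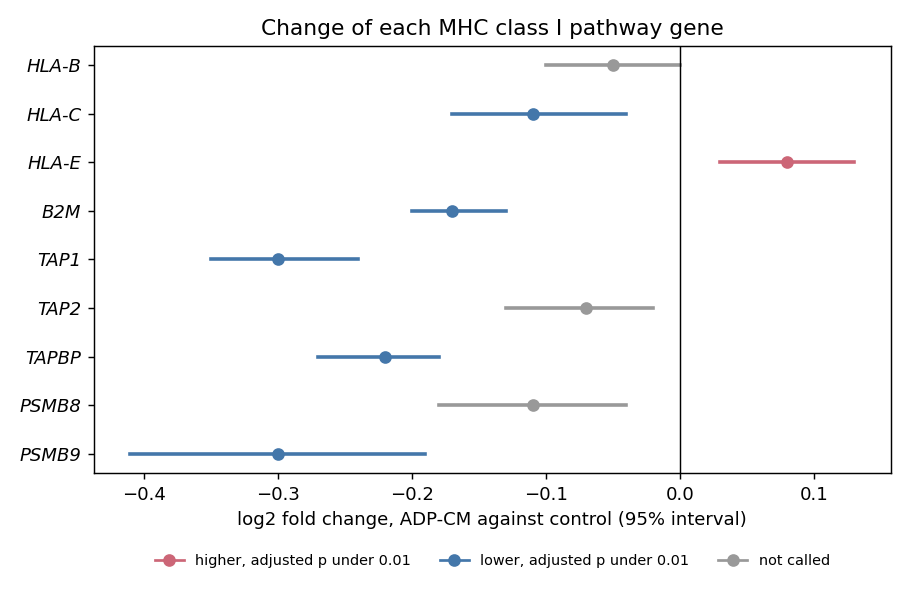
Log2 fold change of ADP-CM against control (x axis) of the 9 genes with the 95% interval of the edgeR fit, coloured by call (red higher, blue lower, grey not called). TAP1 and PSMB9 share the lowest estimate of -0.30, the interval of PSMB9 being the wider, and HLA-E alone lies right of 0.

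The third inducible subunit, PSMB10, had 33.5 ± 1.1 CPM in control and 30.9 ± 0.498 CPM in ADP-CM (SD, n = 3 each) and was not called (log2 fold change -0.12, adjusted p = 0.0863). A gene on the same strand overlaps 56.1% of its canonical exons. The constitutive subunits had log2 fold changes of 0.06 for PSMB5, 0.03 for PSMB6 and 0.06 for PSMB7, none of them called. Within each library, PSMB8 reads were 38.8%, 37.2% and 40.5% of PSMB5 reads in control and 34.4%, 34.4% and 34.6% in ADP-CM. PSMB9 reads were 25.3%, 30.6% and 25.5% of PSMB6 reads in control and 21.2%, 22.3% and 21.5% in ADP-CM. All 3 inducible subunits therefore stood lower against their constitutive counterparts in every ADP-CM library, PSMB10 reads being 14.5% to 16.3% of PSMB7 reads in control and 13.0% to 13.9% in ADP-CM. The log2 differences were -0.17, -0.32 and -0.18. Each had p = 0.1 in a two-sided exact permutation test, the smallest that 3 against 3 libraries allow (Benjamini-Hochberg adjusted over the 3 ratios also 0.1).

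**Figure D3:**
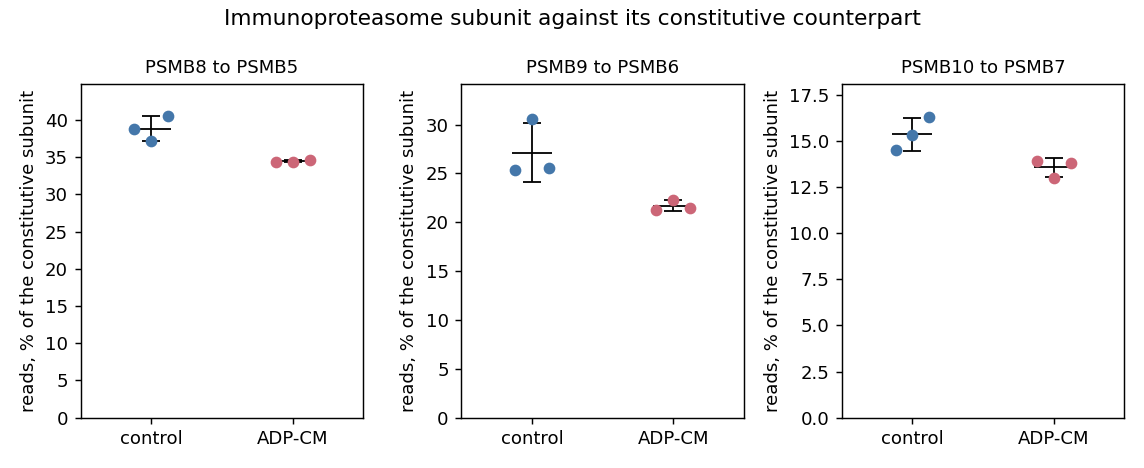
Reads of each inducible proteasome subunit as a percentage of the reads of its constitutive counterpart (y axis from 0) in the 3 control (blue) and 3 ADP-CM (red) libraries, with mean and SD. The 3 pairs are PSMB8 to PSMB5, PSMB9 to PSMB6 and PSMB10 to PSMB7, and all ADP-CM points lie below all control points.

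The promoters of these genes are a textbook case of shared control elements, and the sequence before the start of each of the 5 genes that fell is shown to set those elements beside the values. The RefSeq promoter table (build GRCh38, unlike the GRCh37 positions above) held 10 windows for 8 of the 9 genes, and the 250 bases before the start were searched on both strands. HLA-E had no entry. The motifs were the core of the interferon-stimulated response element (ISRE) in a long form, GAAA followed by any 2 bases and GAAA, and a short form, GAANNGAAA, the NF-kB motif (GGGA, any base, T, any 2 bases, CC), the STAT motif TTCNNNGAA, the NF-Y motif CCAAT and the SP1 motif GGGCGG. The long and short ISRE forms can overlap where repeats follow each other. In each line, 5′ to 3′ on the gene's strand, capitals mark matches of all motifs except SP1.
B2M (chr15:44711267-44711516, plus strand): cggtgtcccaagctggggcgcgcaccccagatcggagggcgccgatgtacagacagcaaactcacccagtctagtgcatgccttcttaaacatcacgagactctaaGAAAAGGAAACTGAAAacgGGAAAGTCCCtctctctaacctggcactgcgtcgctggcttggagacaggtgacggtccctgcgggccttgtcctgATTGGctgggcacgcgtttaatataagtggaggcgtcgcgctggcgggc
HLA-C (chr6:31272093-31272342, minus strand): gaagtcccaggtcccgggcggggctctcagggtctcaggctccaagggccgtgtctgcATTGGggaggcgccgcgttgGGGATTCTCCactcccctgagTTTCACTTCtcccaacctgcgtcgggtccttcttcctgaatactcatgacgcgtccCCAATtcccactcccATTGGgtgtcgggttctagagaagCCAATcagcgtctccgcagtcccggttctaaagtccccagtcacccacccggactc
TAPBP (chr6:33314079-33314328, minus strand): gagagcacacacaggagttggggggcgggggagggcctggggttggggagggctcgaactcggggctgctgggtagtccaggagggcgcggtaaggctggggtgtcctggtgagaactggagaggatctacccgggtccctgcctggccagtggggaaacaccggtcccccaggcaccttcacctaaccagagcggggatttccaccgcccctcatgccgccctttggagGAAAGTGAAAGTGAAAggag
TAP1 (chr6:32853705-32853954, minus strand): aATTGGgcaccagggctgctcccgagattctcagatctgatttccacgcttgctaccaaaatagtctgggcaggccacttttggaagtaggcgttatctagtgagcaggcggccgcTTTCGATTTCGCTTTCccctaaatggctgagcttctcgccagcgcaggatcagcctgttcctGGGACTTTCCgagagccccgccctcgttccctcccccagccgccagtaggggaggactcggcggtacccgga
PSMB9 (chr6:32853942-32854191, plus strand): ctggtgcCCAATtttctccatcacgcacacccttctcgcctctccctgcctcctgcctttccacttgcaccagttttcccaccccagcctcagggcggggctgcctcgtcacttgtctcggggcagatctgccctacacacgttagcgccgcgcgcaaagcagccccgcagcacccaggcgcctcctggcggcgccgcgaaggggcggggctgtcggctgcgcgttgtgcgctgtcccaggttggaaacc

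TAP1 and PSMB9 lie head to head, with 487 bases between their starts, so that their windows share 13 bases and the same NF-Y match. The long ISRE core occurred before B2M, TAP1, TAP2 and TAPBP, that is in 4 of 8 genes, beside 3.02% of 35116 promoters in the table, and the short form before HLA-B, HLA-C and TAP2, beside 6.56%. Either form was present in 6 of the 8 genes and in 6 of their 10 windows, beside 9.08% of all promoters. The windows of B2M and TAPBP and the first window of TAP1, the one shown, each held 2 long cores that overlapped, and those of TAPBP lay within the last 20 bases before the start. NF-kB matches occurred in 4 of 8 genes (4.46% of all promoters), STAT matches in 2 (6.57%, at the second start of TAP1 and of PSMB8), NF-Y matches in 5 (32%) and SP1 matches in 5 (42.6%). Counts of genes take a match in any window of a gene, whereas the percentages are per promoter. The units are therefore unlike, and a gene with a second start had more sequence in which to match. PSMB9 had no ISRE match in its own window but lies opposite the one of TAP1. HLA-B and TAP2, which were not called, held ISRE cores as did TAP1 and B2M, which fell. A match is only a run of letters and no occupancy was measured.

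**Figure D4:**
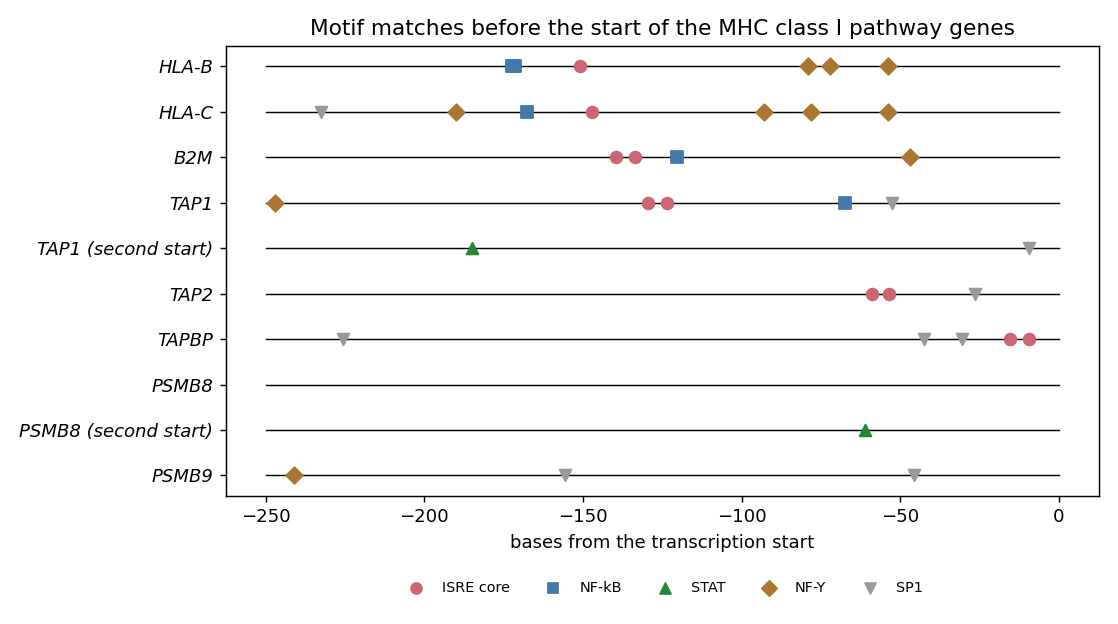
Centres of motif matches (symbols) along the 250 bases before each transcription start (x axis, bases from the start at 0) in the 10 windows of 8 genes. ISRE cores (red circles, both forms) are present in 6 windows, and the NF-Y matches (brown diamonds) of HLA-B and HLA-C lie mostly in the 100 bases next to the start.

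Beside the 9 genes, 4 lists of genes that work in the same pathway held 48 tested genes, of which 3 were higher, 11 lower and 34 not called (median log2 fold change -0.06). The total called is near the 26.5% of all tested genes (13.5% higher and 13% lower), so nothing is read from it. Among 15 trimming and loading genes, 2 were higher and 6 lower, beside the same shares of all tested genes. ERAP1, the aminopeptidase that trims peptides in the endoplasmic reticulum, fell by 0.24 on the log2 scale (154 ± 0.997 to 131 ± 1.5 CPM, adjusted p = 8.81e-10). TAPBPL, the tapasin-like editor, fell by 0.48 (16.8 ± 0.579 to 12.0 ± 0.848 CPM, adjusted p = 1.33e-06), the largest fall of this list. LNPEP, an endosomal aminopeptidase, fell by 0.25 and the chaperone CALR by 0.12, while PDIA3 (-0.04) and ERAP2 (-0.10) were not called. The 2 that rose were the cytosolic peptidases TPP2 (0.11) and THOP1 (0.12), named after their values were seen, and neither was called by DESeq2.

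Of 8 proteasome partners, 2 were called, a share near the 26.5% of all tested genes, so nothing is read from this count. These 2 were the subunits of the interferon-inducible PA28 activator. PSME1 fell by 0.14 (adjusted p = 6.35e-05) and PSME2 also by 0.14 (adjusted p = 0.00114) on the log2 scale, and the call of PSME2 was lost with DESeq2 (adjusted p = 0.0129) and without control replicate 1 (adjusted p = 0.0101 in edgeR). POMP, the assembly factor of the proteasome, had a log2 fold change of 0.08 (adjusted p = 0.0287) and was not called, except without control replicate 3 (0.12, adjusted p = 0.00232 in edgeR). The 3 inducible catalytic subunits and the PA28 subunits PSME1 and PSME2 thus had negative estimates, PSMB8 and PSMB10 without a call. The constitutive PSMB5, PSMB6 and PSMB7 had small positive ones, none of them called. So had POMP and, named after its values were seen, PSME3 (0.05), neither of them called with all libraries.

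The 16 regulators of class I genes had 1 higher and 3 lower members, a share near the 26.5% called among all tested genes, so nothing is read from this count. IRF1, the transcription factor that binds ISRE-type sites, fell by 0.33 on the log2 scale (62.5 ± 1.1 to 49.6 ± 1.27 CPM, adjusted p = 1.66e-09). NFYA, a subunit of NF-Y, fell by 0.14 (adjusted p = 7.40e-04) and EZH2, a histone methyltransferase, by 0.16 (adjusted p = 5.18e-04). The call of NFYA was lost with DESeq2 (adjusted p = 0.0102) and without control replicate 2 (adjusted p = 0.0203 in edgeR), and that of EZH2 without control replicate 1 (adjusted p = 0.0106 in edgeR). NLRC5 was low, at 12.0 ± 1.83 CPM in control and 10.5 ± 0.118 CPM in ADP-CM, with overlapping groups, and was not called (log2 fold change -0.20, adjusted p = 0.0925). Its value rested on single libraries, being -0.12 without control replicate 2 and -0.32 without control replicate 3, where it was called (adjusted p = 0.00858 in edgeR). The 1 that rose, USF2 (0.11), was named after its values were seen and was called neither by DESeq2 nor without any one of control replicates 2 and 3 and the 3 ADP-CM libraries.

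Among 17 genes of interferon signalling, 4 were higher and 4 lower, beside 13.5% and 13% of all tested genes. STAT2, a transcription factor of the type I interferon response, rose by 0.25 on the log2 scale (adjusted p = 4.18e-05). SOCS3, a feedback inhibitor of JAK-STAT signalling, rose by 0.59 (31.4 ± 0.888 to 47.2 ± 1.02 CPM, adjusted p = 2.00e-15). Of the others called, IRF9 and JAK1 were higher and SOCS1, IFNAR2 and IFNGR1 lower, all named after their values were seen, and with DESeq2 the lower ones of the list numbered 1.

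The targets of interferon did not move one way. Of 13 tested genes induced mainly by interferon-gamma, 3 were higher and 6 lower, beside 13.5% and 13% of all tested genes. Their median was -0.20 on the log2 scale. GBP1 and GBP3, guanylate-binding proteins, fell by 0.37 (adjusted p = 3.67e-05) and 0.39 (adjusted p = 8.99e-08), and the 3 that rose, named after their values were seen, were ICAM1, BTN3A1 and BTN3A3. With DESeq2 the counts were 0 higher and 3 lower. Of 26 tested genes typical of type I interferon, 9 were higher and 3 lower, beside the same shares of all tested genes. Their median was 0.13 and 6 were past a 1.5-fold rise, beside 2.27% of all tested genes past 1.5-fold in either direction. IFI44 rose by 2.49 on the log2 scale (1.42 ± 0.693 to 7.97 ± 0.789 CPM, adjusted p = 1.92e-18), IFIT2 by 0.94 (adjusted p = 4.54e-14) and DDX58, the RNA sensor RIG-I, by 0.74 (adjusted p = 1.11e-12). The 3 that fell, again named after their values were seen, were OAS3, IFI35 and IFIH1. No test compared these lists with each other.

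**Figure D5:**
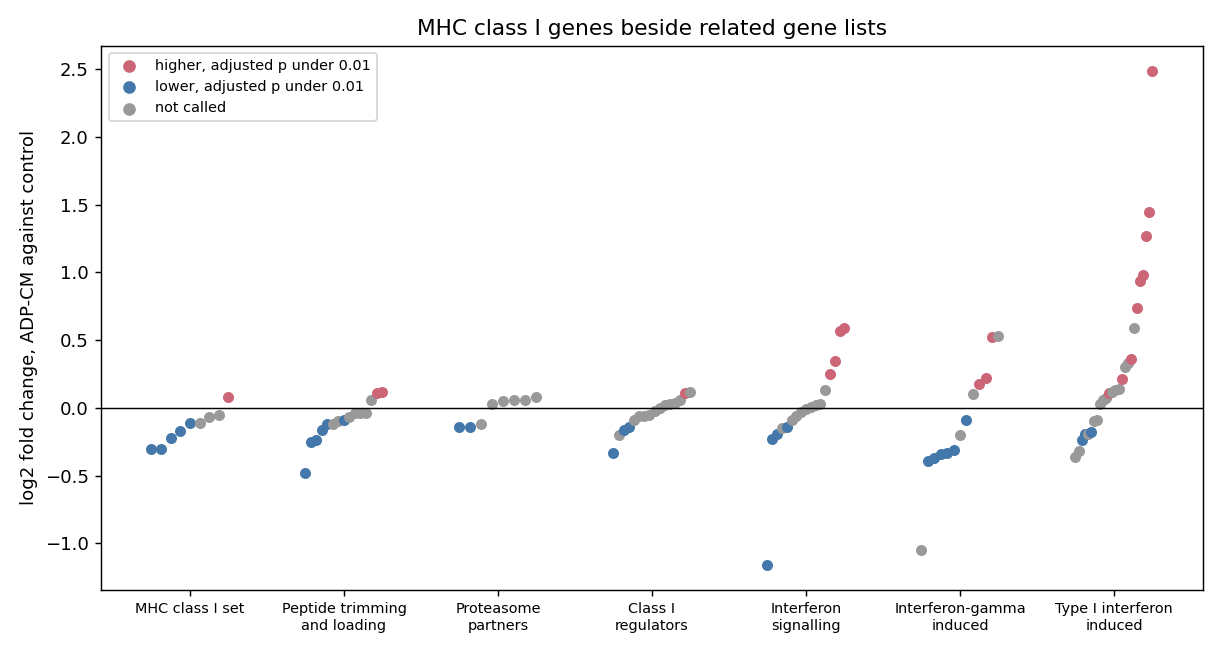
Log2 fold change of ADP-CM against control (y axis) of every tested gene in the MHC class I set and 6 related lists, each point a gene, ordered within a list and coloured by call (red higher, blue lower, grey not called). Points of the class I set lie between -0.30 and 0.08, while the type I interferon list reaches 2.49.

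The other class I-like genes gave no calls, with 0 of 9 tested genes called by edgeR or by DESeq2 and 2 (MICA and HLA-L) at an unadjusted p under 0.05 in edgeR. MICA, a stress ligand of the NKG2D receptor, had a log2 fold change of -0.23 (adjusted p = 0.0248), HLA-F -0.10 (adjusted p = 0.124) and HLA-L -0.48 (adjusted p = 0.0943). HLA-L had 20 to 53 reads per library and moved to -0.23 without control replicate 3, -0.26 without ADP-CM replicate 1 and -0.72 without control replicate 2.

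Per kilobase of exon (union of annotated exons), B2M had the highest level in control, 402 ± 3.43 CPM per kilobase, and PSMB9 the lowest, 11.7 ± 1.05. HLA-E (87.4 ± 1.03), HLA-B (73.3 ± 2.28), TAPBP (53.3 ± 0.946), HLA-C (45.9 ± 1.09), TAP1 (34.9 ± 0.504), PSMB8 (26.6 ± 1.30) and TAP2 (21.2 ± 0.10) lay between them, and no neighbours in this order overlapped over the 3 control libraries. With the length of the canonical transcript instead, an alternative added after the data were seen, B2M stayed first and PSMB9 last, but HLA-B and TAPBP passed HLA-E and PSMB8 passed HLA-C and TAP1. TAPBP (101 to 104) and HLA-E (99.4 to 102) then overlapped, as did TAP2 (38.7 to 39.1) and PSMB9 (36.2 to 42.4). The order within the middle of the set therefore depends on the transcript assumed.

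In the stretch of chromosome 6 from the start of HLA-F to that of KIFC1 (29690552 to 33359600 on GRCh37), which holds 8 of the 9 genes, 97 genes were tested, 15 of them higher and 14 lower, shares near the 13.5% and 13% of all tested genes. Without the class I and class II genes and the 9 genes described here, 80 were left, of which 14 were higher and 10 lower (median log2 fold change 0.03). The genes whose centred log2 CPM profile over the 6 libraries lay nearest to that of TAP1 (Euclidean distance, 9569 genes with at least 10 CPM compared) were BARD1 (0.0527), TRIM16 (0.0588) and LIPG (0.0638). BARD1, the partner of BRCA1, had 45.1 ± 0.415 CPM in control and 36.5 ± 1.22 CPM in ADP-CM, and no gene of the class I pathway was among these 3.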

How the data were processed

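RNA of 6 libraries (3 control, 3 ADP-CM, grouped by their labels) was sequenced as 50 bp reads from stranded mRNA libraries. The authors aligned reads to hg19 with TopHat2 and counted them per gene of the NCBI RefSeq annotation with HTSeq. They deposited raw counts (program versions and strand setting not given in the sources used here). HTSeq leaves out reads aligned to several places (20.5% to 20.8% per library) and reads shared by overlapping genes (0.709% to 0.721%), which can lower counts of HLA genes.

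Counts were filtered with filterByExpr (12663 of 23228 genes kept), TMM-normalized and compared with edgeR 4.0.16 (quasi-likelihood test, Benjamini-Hochberg adjustment over all tested genes, R 4.3.3), after the script was tested on simulated data. CPM values are TMM-normalized. DESeq2 1.42.0, other scalings and filters, a replicate block and each library left out were alternatives. Every replicate pair differed by more than sampling noise. Positions came from GENCODE 44 on GRCh37 (18910 symbols matched directly, 2134 by an older symbol, 2184 not). The 9 genes, the lists and the motifs were chosen with earlier results of these data known. All 9 genes were named, with up to 3 genes of smallest adjusted p per related list, 12 further genes by name, and the 3 nearest to the gene of smallest p. A few genes covered by this rule were left out of the text.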

Additional observations from a re-analysis of the deposited data

How the results depend on the processing

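B2M, TAP1, TAPBP and PSMB9 were called under each of the 12 other fits, and none of the 9 genes changed direction in any. The number of the 9 genes called was 6 with each other scaling and without a filter. It was 7 with at least 10 counts in every library (PSMB8 added), 4 with DESeq2 and 4 to 6 with one library left out. At an adjusted p under 0.05 in edgeR it was 8, beside 4645 of the 12663 genes tested. No fit called any of the 9 past 1.5-fold. DESeq2 called 2125 genes in all, beside 3357 with edgeR, and the cause was not tested. With one library left out, edgeR called 2638 to 3206 genes. TAP2 was called without ADP-CM replicate 3 only. Other scalings moved the median of all genes by no more than 0.003 on the log2 scale. With the replicate block, 7 of the 9 genes were called (PSMB8 added, adjusted p = 0.00847 in edgeR) and 3502 in all. Libraries of the same number were not shown to be paired, since their deviations correlated by 0.0762, 0.00405 and 0.102, and ADP-CM replicate 2 correlated best with control replicate 1. With 3 libraries per group, exact tests cannot go below p = 0.1, and depth limits genes with few reads, such as the class II genes. With one library left out, the higher calls fell to as few as 0 among trimming and loading genes, 0 among regulators and 1 among interferon-gamma targets, and the lower calls to 2 in interferon signalling, 3 among interferon-gamma targets and 1 among proteasome partners.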

Other observations

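MHC class II genes, which present peptides to CD4 T cells, had few reads in these cells, up to 38 per library for HLA-DRB1 (named after its values were seen). Of the 14 genes of that list, 6 passed the filter and none was called by edgeR or by DESeq2, with 1 (CIITA) at an unadjusted p under 0.05 in edgeR. In edgeR, 1 gene of the list was called lower without a filter, without control replicate 2 and without ADP-CM replicate 1. That gene was not CIITA, whose adjusted p in these edgeR fits was 0.0285, 0.0668 and 0.159. The protease CTSS, also on the list and named after its values were seen, had 100 to 137 reads per library. CIITA, the class II transactivator, had 0.915 ± 0.0458 CPM in control and 0.437 ± 0.194 CPM in ADP-CM (4 to 16 reads per library), with a log2 fold change of -1.05 (adjusted p = 0.0213 in edgeR), and was not called, and its value was -0.74 to -1.34 with one library left out. The invariant chain CD74 had 11 to 24 reads per library and a log2 fold change of -0.47 (adjusted p = 0.265 in edgeR), and HLA-DOB had 5 to 21 reads and a log2 fold change of 0.71 (adjusted p = 0.159 in edgeR). With one library left out, CD74 ranged from -0.69 to -0.18 and HLA-DOB from 0.33 to 1.13, so neither value is steady.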
